A study of Mus musculus with 9 samples.

Results

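The cells described here are a class of astrocytes chosen by the transcripts of Crym, Gdf10 and Cxcl14 in single-cell RNA sequencing of the adult mouse forebrain. A barcode was kept with 1000 to 20000 unique molecular identifiers (UMIs, one per captured transcript), 100 to 6000 genes and under 10% mitochondrial UMIs. It was counted as astroglial with at least 5 UMIs of Slc1a2, Slc1a3 and Aqp4 together, 0 UMIs of the cycling genes Top2a and Mki67 and of Frzb, and at most 1 of Dcx. It entered the class with at least 3 UMIs of Crym, Gdf10 and Cxcl14 together, more than 2 times both the sum of Nkx2-1, Gabrg1 and Folh1 and the sum of Igfbp2, Islr and Hs3st3a1, and at most 1 UMI of Thbs4 and Ecel1 together. The rule gave 3302 cells of 18390 kept barcodes, with 675 of 5916 from WT young, 635 of 2423 from WT old, 1103 of 6638 from KO young and 889 of 3413 from KO old mice. Since these transcripts chose the cells, their levels are a description and carry no test.

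Crym encodes mu-crystallin, a cytosolic protein that binds thyroid hormone. Gdf10 encodes a secreted ligand of the BMP and TGF-beta family, and Cxcl14 a chemokine. Rpe65 encodes the retinoid isomerase known from the visual cycle of the eye, and Aqp4 the water channel of astrocyte endfeet. Astrocytes take up glutamate and GABA from the extracellular space, supply cholesterol and other lipids, and express receptors for type I and type II interferons, whose loss is the genetic variable of this study. In the ventricular-subventricular zone (vSVZ), astrocyte-like cells also serve as neural stem cells, and astrocytes outside such niches normally do not divide.

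All mice were TiCY mice, in which tamoxifen-driven Tlx-CreERT2 recombination labels the neural stem cell lineage with eYFP, and all received tamoxifen. WT young mice were 16 weeks old with 6 weeks between tamoxifen and death, WT old mice 80 weeks old with 9 weeks, IFNAGR KO young mice 16 weeks old with 9 weeks, and IFNAGR KO old mice 92 to 105 weeks old with 9 weeks. IFNAGR KO mice (strain TiCY-IFNAGRKO) lack the interferon receptors Ifnar1 and Ifngr1. From the vSVZ, eYFP+ and GLAST+ cells were sorted. Striatum, olfactory bulb and rostral migratory stream were pooled as "rest of the brain" (RoB), and eYFP+ and eYFP-/PSA-NCAM low cells were sorted from this pool. Both sorts left out CD45+, Ter119+ and O4+ cells. Each group was one 10x Genomics reaction of 2 mice, with 4 hashtag antibodies marking mouse and tissue, so group and reaction cannot be told apart, and the WT young chase differs from that of the other groups. The gates differed between the tissues, GLAST being used in the vSVZ alone, and they also set which cells could be found.

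The class cells had a median of 7196 UMIs, from 5264 in WT young to 8038 in KO young, and 1319 of them (39.9%) had a hashtag call, 95 to 260 per mouse. Microglial transcripts were unequal between mice: the summed level of 9 microglia markers was 417 UMIs per 1000000 UMIs of the summed cells (CPM) in WT young mouse 2 and 603 CPM in KO young mouse 1, and 68.4 to 136 CPM in the other 6 mice, in 5 of which 3 or more of the 9 markers were at 0. The 8 neuroblast markers summed to 232 to 383 CPM in the 4 young mice and 97.6 to 178 CPM in the 4 old mice. Transcripts of these types in class barcodes move with age and with single mice, and their part in the results was not tested, though values without such barcodes are given beside the comparisons they touch. Of the class barcodes, 4 shared their sequence with a class barcode of another library, and 29 were predicted doublets. Values per mouse are given as mouse 1, then mouse 2, in CPM.

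Cxcl14 was the most widespread of the 3 choosing genes, with a UMI in 96.3% of class cells, against 64.5% for Crym and 26.5% for Gdf10. Crym gave 63.0% of the 3-gene UMIs, Cxcl14 35.2% and Gdf10 1.79%. Cells with UMIs of all 3 genes made up 15.6% of the class, and 24.7% had Cxcl14 alone. A Gdf10 UMI was found in 30.3% of cells without any Crym UMI and in 24.4% of cells with 10 or more. Cells without Crym had to reach the rule through Cxcl14 and Gdf10, which raises the share with Gdf10 among them, so nothing is read from that difference.

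Rpe65 was the one marker of the class that the rule did not use, and its transcripts followed the rule. It stood at 113 CPM with a UMI in 33.7% of class cells, at 41.2 CPM and 18.2% in 66 cells chosen the same way for Nkx2-1, Gabrg1 and Folh1 (Nkx2-1 class), at 14.9 CPM and 5.67% in 194 cells chosen for Igfbp2, Islr and Hs3st3a1 (Igfbp2 class), and at 10.3 CPM and 4.17% in 696 cells chosen for at least 3 UMIs of Thbs4 and Ecel1 (Thbs4 class). The 1898 astroglia that fell in none of these had 43.4 CPM. In 325 barcodes gated as microglia, which should lack these genes, 0.308% had an Rpe65 UMI, 2.15% a Crym UMI and 1.23% an Aqp4 UMI, with median depths of 5257 UMIs in that gate and 7196 in the class. Crym itself did not set the class apart from the Thbs4 class, at 1941 CPM against 1664 CPM, and was nearly absent from the Igfbp2 class at 3.54 CPM.

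**Figure D1:**
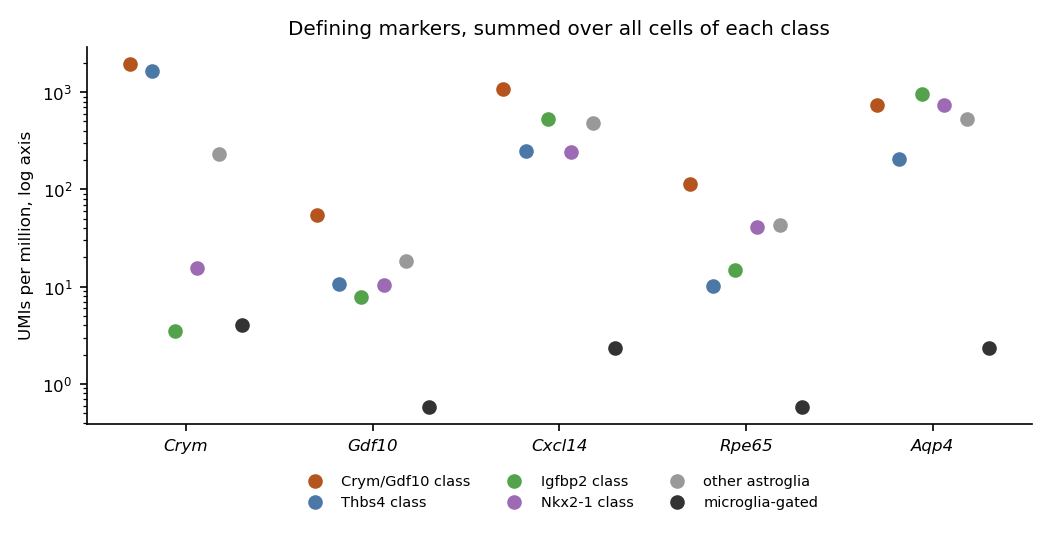
Levels of the 5 markers of the class (CPM, log axis) summed over the cells of each astroglial class and of the microglia gate. Rpe65, which the rule did not use, is highest in the Crym and Gdf10 class at 113 CPM, while Crym is nearly as high in the Thbs4 class (1664 CPM) as here (1941 CPM).

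At the edge of the rule, 94 cells just inside, with 3 UMIs of the 3 genes, had 83.7 CPM of Rpe65 and 46.2 CPM of eYFP, and 111 cells with 4 UMIs had 69.7 CPM of Rpe65. Just outside, 54 cells with 2 UMIs had 23.9 CPM of Rpe65 and 232 CPM of eYFP, and 88 cells with 1 UMI had 13.3 CPM of Rpe65.

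Genes that the rule did not use differed from the Thbs4 class in both directions. S100b, a calcium-binding protein of mature astrocytes, stood at 225 CPM in the class and 25.001 CPM in the Thbs4 class. Gria2, an AMPA receptor subunit, stood at 676 CPM against 101 CPM, and the alarmin Il33 at 213 CPM against 22.9 CPM. In the opposite direction, Gfap, the intermediate filament of reactive and stem cell astrocytes, stood at 25.3 CPM in the class and 131 CPM in the Thbs4 class, and Prss56, a serine protease, at 84.2 against 650.4 CPM. Genes found in stem cells did not all run that way, Id2 standing at 1182 CPM in the class against 665 CPM and Hopx at 327 against 107 CPM. The lineage label eYFP was at 23.9 CPM in the pooled class, 171 CPM in the Thbs4 class and 23.8 CPM in the microglia gate. A UMI of it was found in 9.63%, 47.6% and 5.54% of these cells. The pooled class level covers a spread between mice. Over called class cells it was 53.9 and 78.7 CPM in WT young and 2.02 and 11.6 CPM in WT old. KO young mice had 33.0 and 27.8 CPM, and KO old mice 14.8 and 26.1 CPM. The order differed for the other classes, Gria2 reaching 2759 CPM in the Igfbp2 class and 1268 CPM in the Nkx2-1 class.

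By the size of the smallest ratio to the 3 comparison classes, the leading genes outside the rule were Kirrel2, Rpe65, Dbndd2, Ppp1r3g, Ankrd29, Fam13c, Crot, Oaf, Gm31614, Fjx1, Ephx2, Col11a2, Lmcd1, Kcnk1 and Capn2. Kirrel2, an immunoglobulin-family adhesion protein (GRCm38 chr7:30447534-30457690), was at 41.7 CPM with a UMI in 22.3% of cells, 1.62 on the log2 scale above its nearest class. Dbndd2 was at 262 CPM in 72.0% of cells and 1.203 above the nearest class. Fjx1, a secreted protein of the four-jointed family, was at 1759 CPM in 98.0% of cells. Crot, which moves medium-chain fatty acids out of peroxisomes, was at 381 CPM in 82.3% of cells, and Ephx2, the soluble epoxide hydrolase, at 213 CPM in 68.1%. Rpe65 was 1.43 and Ppp1r3g 0.97 above the nearest class. Apart from these and Kirrel2 and Dbndd2, the listed genes were 0.70 to 0.84 above it, Fjx1, Crot and Ephx2 among them. Each of the 15 was also detected in the other classes.

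Within the class, cells fell along a gradient of Crym, and other genes differed along it. The 1171 cells (35.5%) without a Crym UMI were set against the 1318 cells with 10 or more. Median depth was 6991 UMIs without Crym and 7018 at 10 to 29 Crym UMIs. Cells at 30 or more were deeper, with a median of 8463. This split was chosen after the values were seen and is a description. Prss56 went from 9.08 CPM in cells without Crym to 60.2 CPM at 3 to 9 UMIs and 186 CPM at 30 or more. The Wnt receptor Fzd5 went from 15.1 to 125 CPM, the synaptic organiser C1ql3 from 10.4 to 99.4 CPM, and the transcriptional cofactor Lmo1 from 50.4 to 307.5 CPM. Six3, a forebrain transcription factor, went from 37.7 to 88.3 CPM. These 5 genes were higher in cells with 10 or more Crym UMIs than in cells without in 8 of 8 mice.

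Other genes ran the opposite way. Gria2 went from 924 CPM without Crym to 429.7 CPM at 30 or more UMIs, the mitochondrial glutamate carrier Slc25a18 from 178 to 48.5 CPM, and the latent TGF-beta binding protein Ltbp1 from 70.7 to 8.79 CPM. Olig1 went from 89.8 to 18.8 CPM, the potassium channel Kcnj16 from 46.6 to 5.19 CPM, Rlbp1, which binds retinaldehyde, from 102 to 27.2 CPM, Agt, the angiotensin precursor, from 189.6 to 45.9 CPM, and Hopx from 494.5 to 182 CPM. Of the 8 genes, Ltbp1, Olig1, Slc25a18, Gria2, Rlbp1 and Hopx were lower in the cells with 10 or more Crym UMIs in 8 of 8 mice and Agt in 7 of 8, and Kcnj16 was not computed by mouse. Cxcl14 was also lower, 8 of 8, but cells without Crym had to reach the rule through Cxcl14 or Gdf10. Gdf10 went from 64.98 to 45.5 CPM and was higher in the Crym-rich cells of 3 of 8 mice, and Rpe65 went from 91.9 to 182 CPM and was higher in 6 of 8.

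**Figure D2:**
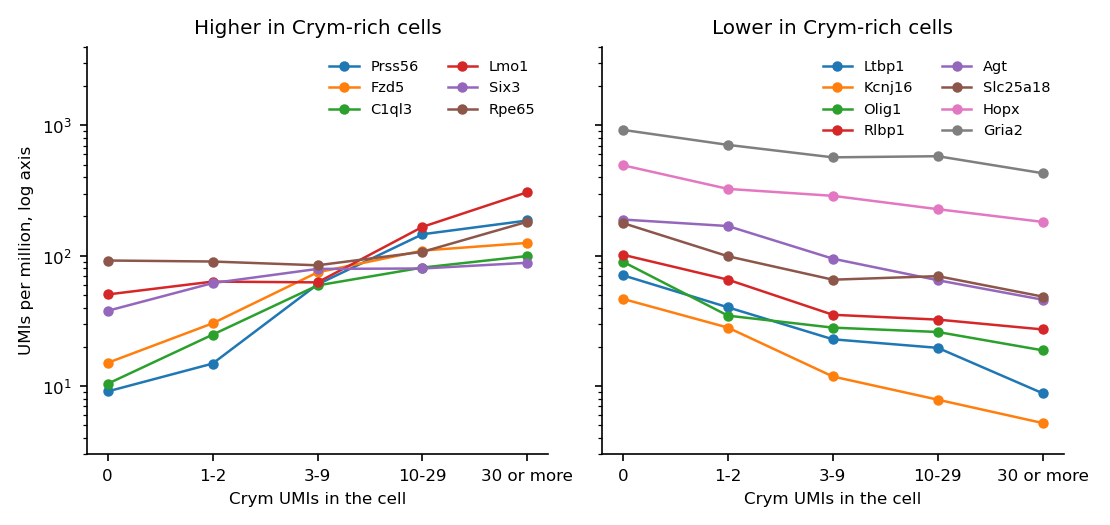
Levels of genes that were higher (left) or lower (right) in cells rich in Crym, in CPM on a log axis, over the class cells binned by their Crym UMIs (0, 1 to 2, 3 to 9, 10 to 29, 30 or more). Prss56 runs from 9.08 to 186 CPM across the bins and Ltbp1 from 70.7 to 8.79 CPM, and Rpe65 lies between 84.4 and 107 CPM below the bin of 30 or more.

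The gradient was found in both tissues. Among vSVZ-hashtag cells, 277 without Crym and 460 with 10 or more UMIs had 23.4 and 199 CPM of Prss56, 19.9 and 157 CPM of Fzd5, 42.8 and 5.18 CPM of Ltbp1, and 701 and 377 CPM of Gria2. Among RoB-hashtag cells, 136 without and 94 with 10 or more had 4.79 and 32.6 CPM of Prss56, 9.59 and 80.9 CPM of Fzd5, 117 and 52.2 CPM of Ltbp1, and 1404 and 784 CPM of Gria2. Both tissue and Crym thus went with these genes. Cells without Crym made up a larger part of the RoB cells than of the vSVZ cells in 7 of 8 mice, from 42.4% to 58.8% of RoB cells in those mice, the exception being WT young mouse 2 with 30% in RoB and 32.2% in vSVZ. Of the hashtag-called cells without Crym, 136 of 413 (32.9%) carried a RoB hashtag, against 13.3% to 17.8% in the 4 bins with Crym. Tmem159, the gene 65388 bases from Crym on chromosome 7 (GRCm38 chr7:120102353-120120992, Crym at chr7:120186380-120202111), went from 0.956 CPM without Crym to 55.7 CPM at 30 or more UMIs, and whether reads of the neighbours were split correctly was not tested.

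The class made up 47.6% to 57.8% of astroglia over the 4 libraries. Its share of astroglial barcodes was 47.6% in WT young (exact Clopper-Pearson interval 45.0 to 50.3), 56.6% in WT old (53.7 to 59.6), 53.0% in KO young (50.9 to 55.2) and 57.8% in KO old (55.3 to 60.3), intervals that cover counting error only. Over hashtag-called cells, WT young mice had shares of 42.4% and 40.8%, WT old mice had 53.2% and 53.7%, KO young mice had 46.2% and 49.7%, and KO old mice had 62.4% and 51.3%. The old mice did not overlap with the young mice of the same genotype. With 2 mice against 2 no exact permutation test can go below 1 in 3, so no test was made, and the sort gates bear on these shares.

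The class was found in both tissues, mostly in the vSVZ. Of its called cells, a RoB hashtag was carried by 22.1% and 14.5% for WT young mice, 40.5% and 22.2% for WT old mice, 24.3% and 10.1% for KO young mice, and 12.7% and 29.4% for KO old mice. Thbs4 class cells had shares of 2.63% and 0% for WT young mice, 0% for both WT old mice, 1.92% and 1.33% for KO young mice, and 5.41% and 7.5% for KO old mice. The 0 of 79 cells in WT young mouse 2 has an exact upper limit of 4.56%. The share was higher in the Crym and Gdf10 class in 8 of 8 mice, by 19.6 ± 10.4 percentage points (SD, n = 8 mice). The two-sided exact sign-flip permutation test gave p = 0.00781, the smallest possible with 8 mice, and an adjusted p of 0.0156 over the comparison classes with a test. With the rule at 5 UMIs 6 mice had 20 cells of both classes and the difference was 17.6 points, and with cells thinned to 3000 UMIs 4 mice had them and it was 12.7 points, neither able to pass after adjustment. Against the Igfbp2 class, nearly all from RoB, the share was lower by 70.5 points on average in 3 of 3 mice with 20 cells of both classes (difference -70.5, exact permutation p = 0.25, the smallest possible). The Nkx2-1 class had under 20 called cells in each mouse and could not be compared. In each mouse with values, the share of the class thus lay above that of the Thbs4 class and below that of the Igfbp2 class.

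Within a mouse, class cells from RoB had more Slc25a18, Ltbp1, Gria2 and S100b, and less Fzd5, than those of the vSVZ. The 7 mice with 20 called cells from each tissue were compared with the mouse as a block, leaving out KO young mouse 2, with 16 RoB cells. Of 5645 genes tested, 60 were higher (1.06% called) and 55 lower (0.974%) in RoB by edgeR's quasi-likelihood test at a Benjamini-Hochberg adjusted p of 0.05, or 2.04% in both directions. The tissue comes from the hashtag, which the rule did not use.

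Slc25a18 had 35.6 to 68.9 CPM in vSVZ cells of the 7 mice (mean 56.2) and 92.9 to 276 CPM in RoB cells (mean 203), without overlap. Its log2 difference was 1.91 ± 0.13 (SE, adjusted p = 6.2e-14). Ltbp1 had 11.9 to 31.2 CPM in vSVZ and 41.4 to 100.1 CPM in RoB, again without overlap, and rose by 2.11 ± 0.22 (adjusted p = 1.8e-08). Gria2 had 276 to 685 CPM in vSVZ and 629.5 to 1360 CPM in RoB, ranges that overlap between mice, but it was higher in RoB in 7 of 7 mice, by 1.03 ± 0.08 (adjusted p = 7.3e-13). S100b had 122 to 207.5 CPM in vSVZ and 221 to 355 CPM in RoB, a log2 difference of 0.82 ± 0.10, and Slc6a11, the GABA transporter GAT3, had 192 to 382 CPM and 314 to 594 CPM, a difference of 0.73 ± 0.08. Olig1 (2.02), Cit (1.93), Kcnj16 (1.63), the Notch ligand Dner (1.53), Rlbp1 (1.04), Agt (0.71), Fabp7 (0.62) and the connexin Gjb6 (0.47) were likewise higher in RoB.

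Genes of the vSVZ side included Fzd5, Prss56, C1ql3 and Six3 of the Crym-rich end of the gradient, but not all of that end. Among cells with 10 or more Crym UMIs, Lmo1 had 211 CPM in vSVZ and 288 CPM in RoB. Rpe65 was higher in RoB in 5 of 7 mice, with means of 110 CPM in vSVZ and 143 CPM in RoB. Fzd5 had 56.6 to 137 CPM in vSVZ and 17.01 to 68.1 CPM in RoB, lower in RoB in 7 of 7 mice, with a log2 difference of -1.45 ± 0.20 (edgeR adjusted p = 4.5e-06). Prss56 fell by 1.73 on the log2 scale, with 34.0 to 195 CPM in vSVZ and 0 to 108 CPM in RoB, and it was higher in RoB in 1 of the 7 mice, KO young mouse 1. Enpp2, which makes lysophosphatidic acid, differed by -1.02, the matricellular Ccn1 by -0.86, C1ql3 by -0.85, the complement gene C4b by -0.71, Six3 by -0.71, Notch1 by -0.70 and Igfbp5 by -0.64. Of 19 stem cell genes tested, 6 were lower in RoB and 1, Fabp7, higher, with a median of -0.24 against 0.01 over all genes. Of 17 transmitter handling genes, 2 were higher (Gria2 and Slc6a11) and 1 lower, the glutamate transporter Slc1a2, which is a gene of the rule. Crym differed by -0.46, with 1613 to 2339 CPM in vSVZ and 1041 to 2193 CPM in RoB, and is also a rule gene. None of 15 interferon-stimulated genes tested passed the test.

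Ltbp1, Slc25a18, Olig1, Kcnj16, Cit, Dner, Gria2, S100b, Slc6a11, Fzd5, Ccn1 and Igfbp5 passed under each alternative that gave a value. Without the mouse as a block, 46 genes were called (28 higher, 18 lower), and without KO old mouse 1 the count was 75. Apod (1.46) reached 450.1 CPM in RoB cells of WT young mouse 1 and 8.51 to 128 CPM in the other 6.

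**Figure D3:**
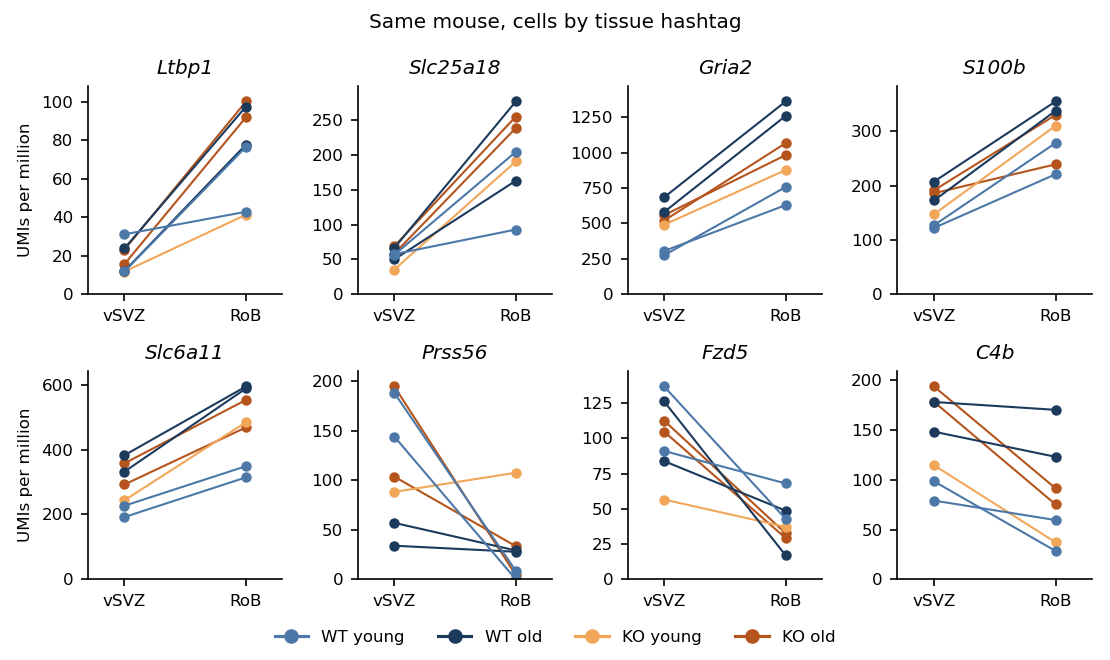
Level in vSVZ-hashtag and RoB-hashtag cells of the class (CPM) for 8 genes, each line 1 of 7 mice coloured by group. Ltbp1, Slc25a18, Gria2, S100b and Slc6a11 are higher in RoB in 7 of 7 mice, and Fzd5 and C4b are lower in 7 of 7.

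The interferon receptors were the check of the genotype. Ifngr1, the type II receptor chain, had 86.2 and 97.8 CPM in WT young, 94.95 and 81.6 CPM in WT old, 2.997 and 3.18 CPM in KO young and 1.53 and 4.56 CPM in KO old. Ifnar1, the type I chain, had 23.4 and 35.6, 25.3 and 30.9, 1.998 and 3.18, and 4.60 and 3.26 CPM in the same order. All 4 KO mice lay below all 4 WT mice for both genes, and the remaining KO values are a few UMIs per mouse. Ifnar2 and Ifngr2, the partner chains, which are not deleted, had 68.9 to 88.9 CPM and 14.1 to 42.0 CPM over the 8 mice, with WT and KO overlapping.

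The first comparison asked how the class changed with age in WT mice. Of 19 genes of transmitter handling 10 were higher in WT old mice, Gria2 and Slc6a11 among them, and Vim, Cd9 and Ifitm3 were lower. Of 9225 genes tested, 252 were higher (2.73% called) and 356 lower (3.86%) in WT old by edgeR's quasi-likelihood test, or 6.59% in both directions. Without WT young mouse 2, which carried microglial transcripts, 142 were called, and without barcodes holding microglia or neuroblast RNA, an alternative chosen after seeing the data, 359. The chase of 9 weeks in WT old and 6 weeks in WT young mice goes with age and cannot be told apart from it.

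Gria2 had 397 and 354 CPM in WT young and 863 and 845 CPM in WT old. It rose by 1.17 ± 0.11 on the log2 scale (edgeR adjusted p = 1.5e-07). Slc6a11 had 223 and 245 CPM in WT young against 438 and 433 CPM, a rise of 0.87 ± 0.13 (adjusted p = 0.0001). The glutamine transporter Slc38a3 had 124 and 149 against 242 and 248 CPM (0.82 ± 0.13). In each of these 3 genes both old mice lay above both young mice. Of 19 transmitter handling genes tested, 10 were higher and 1, the amino acid exchanger Slc7a10, lower, with a median of 0.33 against 0.01 over all genes; Slc1a2 and Slc1a3 among the 10 are rule genes. Without WT young mouse 2, 7 of 22 were higher, Gria2, Slc38a3 and Slc6a11 among them, and without the barcodes holding other types' RNA 8 of 19 were higher.

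Of 25 astrocyte genes, 10 were higher in WT old and 1 lower, with a median of 0.17, and 4 were higher without WT young mouse 2. The rule genes Slc1a2 and Slc1a3 were among the 10 and among the 4. S100b had 165 and 137 CPM in WT young and 241 and 243 CPM in WT old (0.68 ± 0.13), the connexin Gja1 173 and 141 against 297 and 235 CPM (0.74 ± 0.14), and the FGF receptor Fgfr3 212 and 217 against 336 and 359 CPM (0.68 ± 0.11). Fgfr3 held without WT young mouse 2, where S100b and Gja1 did not pass. Cst3, a protease inhibitor, was the one that fell, by 0.28. The BMP target Id2 had 1001 and 852 CPM against 1378 and 1388 CPM (0.57 ± 0.08), and the BMP antagonist Chrdl1 rose by 1.27 ± 0.33, a call lost when any 1 of the 4 WT mice was left out and without barcodes holding other types' RNA. With Gdf10, a rule gene at 27.0 and 21.6 CPM in WT young and 77.8 and 67.8 CPM in WT old, 3 of 31 BMP and TGF-beta genes tested were higher and 0 lower by edgeR.

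Rpe65 had 104 and 35.6 CPM in WT young and 212 and 151 CPM in WT old, a rise of 1.43 ± 0.28 (edgeR adjusted p = 0.0019) that did not pass without WT young mouse 2. Dio2, the deiodinase that activates thyroid hormone, rose by 0.59 ± 0.17. Of 16 thyroid hormone and retinoid genes tested, only Rpe65 and Dio2 were called. Neither passed without WT young mouse 2, and without barcodes holding other types' RNA Rpe65 was called higher, Dio2 was not, and Crym was called lower. The call of Dio2 was also lost without either WT old mouse. The hormone receptors Thra, at 104 to 106 CPM in WT young and 89.3 to 102 CPM in WT old, and Thrb, at 59.3 to 63.5 and 67.7 to 74.4 CPM, were not. Crym, a rule gene, had 2016 and 1973 CPM in WT young and 1825 and 1580 CPM in WT old.

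Among 11 reactive astrocyte genes tested, complement C4b rose, while the intermediate filament Vim and S100a6 fell. C4b had 80.9 and 76.2 CPM in WT young and 175 and 142 CPM in WT old (0.98 ± 0.17). Vim had 232 and 279 CPM against 67.7 and 74.4 CPM and fell by 1.86 ± 0.18 (edgeR adjusted p = 2.1e-07). The tetraspanin Cd9 had 814 and 910.5 CPM against 535 and 491 CPM and fell by 0.77 ± 0.10. C4b, Vim and Cd9 passed both without WT young mouse 2 and without the barcodes holding other types' RNA.

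Interferon-stimulated genes did not move one way with age in WT mice. Of 32 tested, 1 was higher (Zc3hav1, an antiviral zinc finger protein) and 4 lower (Cmpk2, Ifitm2, Ifitm3 and Psme2), and the median was -0.02 against 0.01 over all genes. Ifitm3, which restricts virus entry, had 115 and 92.7 CPM in WT young and 47.5 and 25.4 CPM in WT old, a fall of 1.61 ± 0.24 (edgeR adjusted p = 8.5e-05). Ifi27 had 155 and 170.2 CPM in WT young and 174 and 149 CPM in WT old and was not called. The sum over the 66 interferon-stimulated genes found was 1463 and 1289 CPM in WT young and 1299 and 1194 CPM in WT old, which overlap.

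Of 23 cholesterol synthesis genes, 6 fell in WT old (Cyp51, Fdps, Hmgcs1, Idi1, Msmo1 and Sqle) and Srebf2, the transcription factor of the pathway, rose, with a median of -0.09. Sqle, squalene epoxidase, had 194 and 164 CPM in WT young and 128 and 112 CPM in WT old (-0.60 ± 0.15), and Msmo1 796 and 744 CPM against 651 and 538 CPM (-0.40 ± 0.11). None of the 23 passed without WT young mouse 2, and 7 fell and 0 rose without barcodes holding other types' RNA. The largest falls by the naming rule were genes of other cell types or of 1 mouse. C1qa, a microglial gene, had 0 and 63.5 CPM in the WT young mice and 2.02 and 0.551 CPM in WT old. Ptgds, made in the meninges and oligodendrocytes, had 1691 CPM in WT young mouse 1, 64.8 CPM in mouse 2 and 23.2 and 27.0 CPM in WT old. The neuroblast genes Stmn2, at 37.7 and 48.3 against 3.03 and 4.96 CPM, and Tubb3, at 39.5 and 25.4 against 1.01 and 4.41 CPM, fell, with log2 changes of -3.35 and -3.295. Among the largest rises, Snhg9 (3.21), a small nucleolar RNA host, had 5.39 and 3.81 CPM in WT young and 33.1 to 57.6 CPM in the other 6 mice, so the WT young mice stood apart from the rest, and Rgs6 (2.09) had 14.4 and 10.2 CPM against 50.5 and 52.4 CPM.

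In KO mice the same comparison gave fewer calls, 21 higher (0.228% called) and 35 lower (0.379%) of 9225 genes by edgeR, or 0.607% in both directions. Of 19 transmitter handling genes 0 passed by edgeR's test, with a median of 0.08, where 11 of 19 were above 0. Gria2 had 584 and 470.0 CPM in KO young and 610.2 and 684 CPM in KO old, and Slc6a11 302 and 291 against 314 and 416 CPM. C4b rose, from 95.9 and 82.6 CPM in KO young to 166 and 163 CPM in KO old (0.88 ± 0.14, adjusted p = 0.0013). Apoe, the main lipoprotein of astrocytes, rose by 0.32 ± 0.07, from 3808 and 4135 to 4848 and 5078 CPM, and Clu, a secreted chaperone, fell by 0.43 ± 0.06, from 8382 and 8902 to 6699 and 6161 CPM (adjusted p = 0.00038).

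Some cholesterol synthesis genes were lower in KO old than in KO young mice. Of 23 tested, 5 fell, Fdft1, Hmgcs1, Msmo1 and Sqle among them, and 0 rose by edgeR, with a median of -0.56 against 0.00 over all genes. Sqle had 133 and 152 CPM in KO young and 82.8 and 88.0 CPM in KO old (-0.75 ± 0.14), Hmgcs1, which makes HMG-CoA, 215 and 214 against 136 and 149.96 CPM (-0.60 ± 0.12), and Msmo1 604 and 722 against 429 and 467 CPM (-0.57 ± 0.10). The sum over the 24 genes of the list was 2574 and 2784 CPM in KO young and 1850 and 1852 CPM in KO old, without overlap. Without barcodes holding other types' RNA, 6 of 22 fell and 0 rose by edgeR. In RoB cells alone, with 1 KO young mouse, the median was -0.56.

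Immediate early genes, which are transcribed rapidly after many kinds of stimulus, were also lower in part in KO old mice. Of 20 tested, 6 fell (Atf3, Dusp1, Egr1, Jun, Jund and Klf2), with a median of -1.09. Dusp1, a phosphatase of MAP kinases, had 133 and 239 CPM in KO young and 53.7 and 67.8 CPM in KO old, a fall of 1.66 ± 0.20 (edgeR adjusted p = 0.00011). Jun had 531 and 827 CPM against 252 and 401 CPM (-1.08 ± 0.21), and Klf2 39.96 and 29.4 against 1.02 and 5.22 CPM (-3.53 ± 0.54). In the WT comparison 5 of 20 genes of the list fell, and none without barcodes holding other types' RNA, of 16 tested by edgeR. Dusp1 was not among them, with 77.3 and 102 CPM in WT young and 86.9 and 109 CPM in WT old. Without barcodes holding other types' RNA, 8 of 16 fell in KO mice.

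The largest rises in KO old were Slc22a18 (2.91), a transporter, at 1.998 and 3.97 CPM in KO young and 21.5 and 26.7 CPM in KO old, Crlf2 (2.55), the cytokine receptor chain for TSLP, at 3.996 and 3.18 against 22.5 and 20.2 CPM, and Zc3hav1 (2.36), at 9.99 and 4.76 against 36.8 and 37.2 CPM. Zc3hav1 was the 1 of 32 interferon-stimulated genes called, in mice without the interferon receptors. Fbln5, an elastic fibre protein, had 13.98 and 23.8 CPM against 62.4 and 55.4 CPM (1.59 ± 0.25). Hs3st3a1 (2.13) is a rule gene. The neuroblast gene Tubb3 fell by 3.42, from 39.0 and 19.1 to 3.07 and 1.96 CPM.

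The second comparison asked what loss of the interferon receptors changed. In young mice, 81 genes were higher (0.878% called) and 75 lower (0.813%) in KO of 9225 tested by edgeR, or 1.69% in both directions. Leaving out WT young mouse 1 gave 79 calls, and leaving out WT young mouse 2 gave 39. Without barcodes holding other types' RNA 61 were higher and 20 lower. In that setting 8 of 16 immediate early genes were higher in KO young, with a median of 0.80, against 1 of 20 with all barcodes. Ifngr1 fell by 4.82 ± 0.37 (adjusted p = 6.1e-09) and Ifnar1 by 3.43 ± 0.52 (adjusted p = 0.00027). The WT young mice enter this comparison and the age comparison in WT, and both share those values.

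A few interferon-stimulated genes were lower in KO young mice. Of 32 tested, 3 fell (Ifi27, Ifit3 and Ifitm3) and 0 rose by edgeR, with a median of -0.54 against -0.01 over all genes, and 5 of 32 were above 0. Ifi27 had 155 and 170.2 CPM in WT young and 91.9 and 92.9 CPM in KO young, a fall of 0.78 ± 0.15 (adjusted p = 0.0054). Ifit3 had 82.7 and 41.9 CPM against 31.0 and 19.8 CPM (-1.22 ± 0.30), and Ifitm3 115 and 92.7 CPM against 39.96 and 53.99 CPM (-1.07 ± 0.23). Bst2, at 18.0 and 11.4 against 2.997 and 3.18 CPM, was lower in both KO mice without passing the test. Isg15 was at 0 in both WT young mice and in KO young mouse 1 and at 3.97 CPM in KO young mouse 2, and B2m, at 10.8 and 24.1 against 16.0 and 18.3 CPM, overlapped. Without barcodes holding other types' RNA, 2 of 27 tested were called, Ifi27 and Ifit3b, both lower. Ifit3 and Ifitm3 were not among them. Ifi27 and Ifitm3 did not pass without WT young mouse 2, and leaving out mouse 1 Ifit3 and Ifitm3 did not, so that 1 of 37 tested was called. In RoB cells alone KO young was 1 mouse, mouse 1 with 28 cells, and the median was -0.28. The values there were 0.34 for Ifit3 and 0.21 for Ifitm3, opposite in sign.

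Some transmitter handling genes were higher in KO young than in WT young mice. Of 19 tested, 4 rose (Gria2, Grin2c, Slc38a3 and the rule gene Slc1a2) and 0 fell by edgeR, with a median of 0.30, and 2 rose without WT young mouse 2. Without barcodes holding other types' RNA 2 of 19 rose, and in RoB cells alone, with 1 KO young mouse, the median was -0.087. Slc38a3 had 239 CPM in both KO young mice against 124 and 149 CPM (0.83 ± 0.13, adjusted p = 0.00054), and Gria2 584 and 470.0 against 397 and 354 CPM (0.53 ± 0.11). Gria2 did not pass without WT young mouse 2. Clu had 8382 and 8902 CPM in KO young against 6515 and 6784 CPM (0.42 ± 0.06, adjusted p = 0.00017). Pmepa1, a TGF-beta-induced inhibitor of that pathway, had 185 and 152 CPM against 48.5 and 77.5 CPM (1.398 ± 0.19). Ogdhl, a mitochondrial dehydrogenase subunit, had 81.9 and 89.7 CPM in KO young and 23.4 and 27.9 CPM in WT young (1.76 ± 0.24), while WT old had 74.8 and 97.6 CPM, so the WT young mice again stood apart. Snhg9 was again called (3.62). Vim had 128 and 167 CPM in KO young (-0.76 ± 0.17).

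In old mice, 7 genes were higher (0.0759% called) and 4 lower (0.0434%) in KO of 9225 tested by edgeR, or 0.119% in both directions. Ifngr1 fell by 4.83 ± 0.31 (adjusted p = 1.1e-10) and Ifnar1 by 2.76 ± 0.39 (adjusted p = 0.0003). Of 32 interferon-stimulated genes 0 passed by edgeR's test, and the median was -0.03. Ifi27 had 120 and 112 CPM in KO old against 174 and 149 CPM in WT old, with both KO mice below both WT mice, and Ifitm3 39.9 and 35.9 against 47.5 and 25.4 CPM, which overlap. The sum over the 66 genes was 1152 and 1079 CPM in KO old and 1299 and 1194 CPM in WT old, against 989 and 1017 CPM in KO young, so the 4 KO mice lay below the 4 WT mice on this sum.

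Of the other 9 genes, Kcnn2, a calcium-activated potassium channel, had 38.3 and 39.1 CPM in KO old and 94.95 and 105 CPM in WT old (-1.34 ± 0.16, edgeR adjusted p = 3.5e-05). The endoplasmic reticulum chaperone Hspa5 had 545 and 478 CPM against 352 and 343 CPM (0.61 ± 0.10), and the disulfide isomerase Pdia6 297 and 270 against 180 and 207 CPM (0.59 ± 0.11). In WT young mice Hspa5 had 476 and 556 CPM and Pdia6 313 and 305 CPM, nearer to the KO old than to the WT old values. Wdfy1, an endosomal adaptor, had 60.8 and 60.0 CPM in KO old and 15.2 and 21.5 CPM in WT old (1.70 ± 0.21), and its values in young mice were 65.9 and 62.7 CPM in KO and 18.0 and 16.5 CPM in WT (1.94 ± 0.28), so it was called at both ages. Prss56 had 95.1 and 138 CPM against 45.5 and 32.5 CPM (1.67 ± 0.21) but -0.87 in RoB cells alone, and Meg3, an imprinted long noncoding RNA, 47.5 and 48.2 against 15.2 and 8.82 CPM (2.14 ± 0.30). Chrdl1 (-1.33), Fbln5 (1.10) and Basp1 (1.42) made up the rest.

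**Figure D4:**
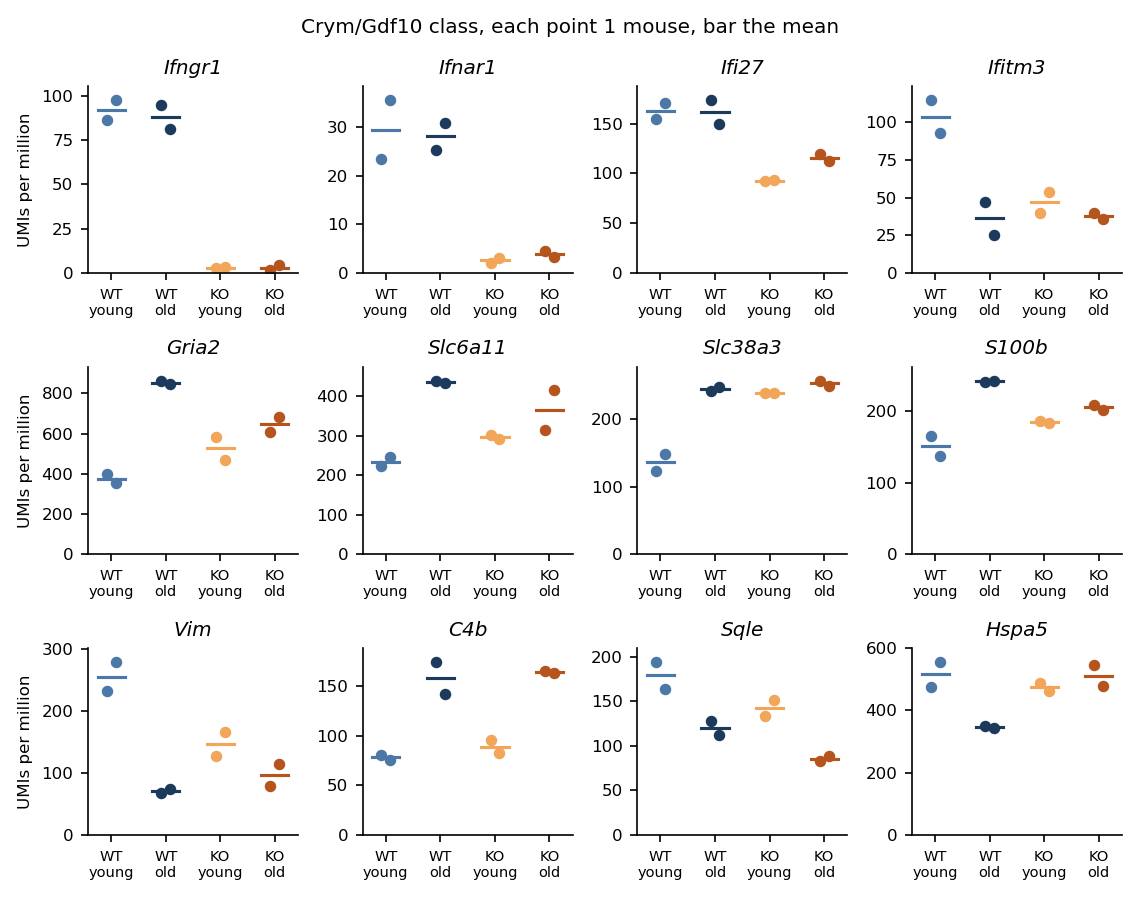
Level of 12 genes in the class (CPM) in the 2 mice of each group, points for mice and bars for their mean. Ifngr1 and Ifnar1 are near 0 in all 4 KO mice, Ifi27 is lower in each KO mouse than in each WT mouse, and Gria2 and Slc6a11 are highest in the WT old mice.

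The third comparison was the difference between the age changes of KO and WT mice. KO old mice, at 92 to 105 weeks, were older than WT old mice, at 80 weeks, and this gap cannot be told apart from genotype here or in the comparison of old mice. Of 9225 genes, 46 differed upwards (0.499% called) and 47 downwards (0.509%) in KO by edgeR, or 1.01% in both directions, 83 by DESeq2 (53 upwards and 30 downwards), and 8 without WT young mouse 2. The age rise of Gria2 was smaller in KO mice by 0.88 ± 0.15 on the log2 scale (adjusted p = 0.0031). That of Id2 was smaller by 0.59 (interaction -0.59 ± 0.11), with 1226 and 1196 CPM in KO young and 1230 and 1159 CPM in KO old. Of 19 transmitter handling genes, 3 had a lower age change in KO (Gria2, Gabbr1 and Slc38a3) and 0 a higher one by edgeR, with a median of -0.45. Without 1 of the WT young mice, 1 or 0 had a lower one. Without barcodes holding other types' RNA, 6 of 16 immediate early genes differed downwards in KO, against 2 of 20 with all barcodes. Dio2 (-1.19) had 128 and 144.5 CPM in KO young and 102 and 77.6 CPM in KO old, against 101 and 74.9 in WT young and 127 and 133 CPM in WT old. Srebf2 (-1.09) and Insig1 (-0.91), which control cholesterol synthesis, differed the same way, Srebf2 going from 66.5 and 68.6 to 116 and 101 CPM with age in WT and from 119 and 112 to 91.0 and 78.9 CPM in KO mice. In the other direction, the fall of Vim was smaller in KO (1.23 ± 0.25), and Fabp7 (0.80) and Cst3 (0.42) also differed. Of the 25 named genes, Ogdhl, Dusp1 and Ptgds passed without WT young mouse 2. None of the 32 interferon-stimulated genes passed by edgeR's test, with a median of 0.27.

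Finally, the age and genotype changes were compared with those of the Thbs4 class of the same mice, with the mouse as a block, since the Nkx2-1 class set as the comparison had under 20 called cells in each mouse. This comparison was chosen after seeing the data. The Thbs4 class sums were smaller, at 155917 to 618766 UMIs and 21 to 79 called cells per mouse, the lowest being WT old mouse 1. The differences are signed, so a lower change can be a deeper fall or a weaker rise. Of 8321 genes tested, the age change in KO mice was higher in 7 genes (0.0841% called) than in the Thbs4 class by edgeR. It was lower in 22 genes (0.264%), or 0.349% in both directions. Of the 22, 14 were immediate early genes, of 22 tested, with a median of -1.81 against 0.01 over all genes. Egr1 had 144 and 264 CPM in KO young and 48.6 and 102 CPM in KO old in the class, against 314 and 457 CPM and 846 and 998 CPM in the Thbs4 class. The difference of the changes was -2.73 ± 0.21 (adjusted p = 3.8e-19). Junb had 135 and 287 against 72.1 and 155 CPM in the class, and 227 and 645 against 709 and 717 CPM in the Thbs4 class (-1.69 ± 0.23, adjusted p = 4.2e-08). Klf2 (-4.88) and Dusp1 (-2.44) differed likewise, and Klf2, Egr1, Dusp1, Junb and Sox11 passed under each alternative that gave a value. For the class differences these were DESeq2, no filter on low counts, the strict hashtag call and each mouse left out. Barcodes holding microglia or neuroblast RNA were not left out here, so their part in these differences was not tested. Sox11 is one of the neuroblast markers. For Egr1, Klf2 and Dusp1 both KO old mice lay below both KO young mice in the class and above them in the Thbs4 class. The ages overlapped for Btg2, Fos, Fosb, Junb and Klf4 in the class, and for Atf3, Btg2, Fos, Jun and Jund in the Thbs4 class. The epidermal growth factor receptor Egfr, at 71.9 and 63.5 against 72.6 and 69.1 CPM in the class and 57.3 and 50.1 against 243 and 149 CPM in the Thbs4 class, differed by -1.78 ± 0.32.

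In WT mice the age change was lower in 22 genes and higher in 0 than in the Thbs4 class by edgeR (0.264% called). In either direction 531 genes had an unadjusted p under 0.05. By DESeq2 the age change was lower in 5 genes and higher in 0. Ifitm3 had 115 and 92.7 against 47.5 and 25.4 CPM in the class, and 106 and 147 CPM in WT young against 468 and 163 CPM in WT old in the Thbs4 class (-2.65 ± 0.33, adjusted p = 7.0e-09). Hopx, a homeodomain cofactor, had 289 and 367 against 284 and 334 CPM in the class and 55.2 and 77.6 against 263 and 260.2 CPM in the Thbs4 class (-2.04 ± 0.29). Vim fell in the class and had 683 and 768 against 712 and 622 CPM in the Thbs4 class (-1.71 ± 0.23). These 3 genes passed under each alternative run for the class differences that gave a value. Of 22 immediate early genes 4 had a lower age change than in the Thbs4 class. The genotype change in young mice was higher than in the Thbs4 class in 4 genes (0.0481% called) and lower in 2 (0.024%), or 0.0721%. DESeq2 called 0 there, with 73 at an unadjusted p under 0.05. In old mice the genotype change was higher in 9 genes (0.108%) and lower in 1 (0.012%), or 0.12%. DESeq2 called 0 there too, with 119 at an unadjusted p under 0.05. Without WT young mouse 1, 0 were called for genotype in young mice by edgeR, with 423 at an unadjusted p under 0.05.

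**Figure D5:**
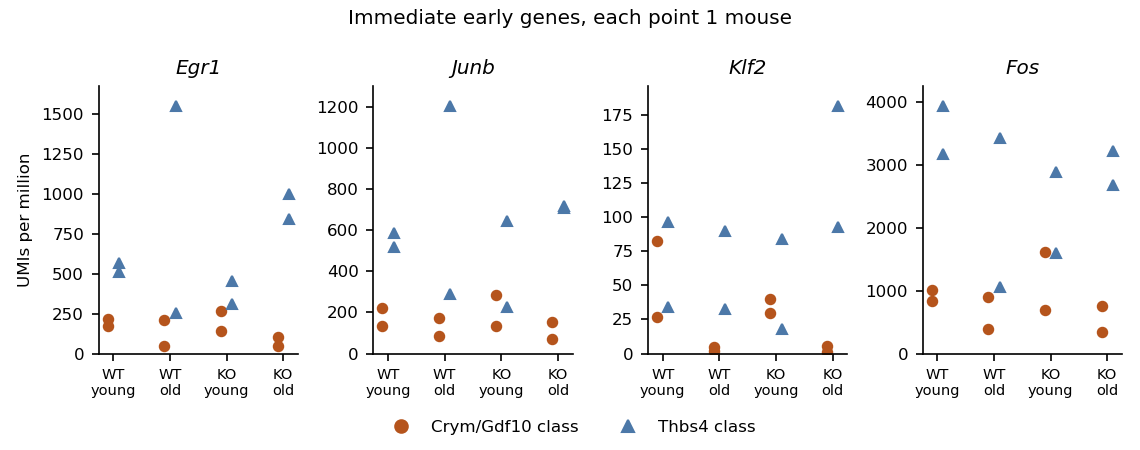
Level of Egr1, Junb, Klf2 and Fos (CPM) per mouse (points) and group in the Crym and Gdf10 class and in the Thbs4 class. In KO old mice the Egr1 level is 48.6 and 102 CPM in the class and 846 and 998 CPM in the Thbs4 class.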

How the data were processed

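Single-cell RNA sequencing (10x Chromium 3′ v3.1) was made from 4 groups, each 1 reaction of 2 mice with 4 hashtag antibodies. The authors filtered index-hopped reads, counted UMIs against GRCm38 with kallisto and bustools and hashtags with CITE-seq-Count, and used Scanpy 1.6.0 and Scrublet downstream. Versions of the other tools are not given in the sources used here. Raw UMI counts per gene and barcode, before cell filtering, are what the deposited matrices hold, and the deposited hashtag tables hold counts per barcode. Of 9 samples, 4 were expression and 4 hashtag libraries, and 1 more hashtag library was not assigned to a group by its labels and was not used. No annotation of cells was used. Some genes are not reported here.

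Cells were chosen by the rule that opens the report. Mice and tissues were called by a multinomial mixture of 5 components (4 hashtags and background) fitted to each library's hashtag counts. UMIs were summed over the called cells of each mouse with at least 20 cells and tested with edgeR 4.0.16 (quasi-likelihood F test, TMM, filterByExpr, R 4.3.3) with Benjamini-Hochberg adjustment over all genes tested at 0.05. A standard error is the log2 change divided by the root of F. The 4 groups shared 1 fit, and tissues and classes were compared with the mouse as a block. Mice of a group were in 1 reaction, so p-values measure the spread between these mice only. Positions are those of GENCODE vM21, matched by ID for 32235 of 32287 genes.

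Named genes were the 10 largest rises and falls among called genes with a mean of at least 20 CPM in 1 group (5 and 5 for age by genotype and for differences between classes), and each called member of the gene lists. Genes named outside that rule, such as Ifi27 in old mice, Bst2 and B2m, were chosen after their values were seen. Members, lists and comparisons were chosen with earlier results of these data known. Classes against each other, and the split by Crym, were described without a test. Predicted doublets (Scrublet in scanpy 1.11.5) were kept, and left out as an alternative. The fits were run on simulated counts, with the same spread for each gene and 200 genes changed by 1 on the log2 scale. Of these, 45% were recovered for age in WT, 62.5% for age in KO, 51% for genotype in young and 72% for genotype in old. For tissue 88.5% were recovered, for age by genotype 29.5%, and for the differences from the Thbs4 class 6% to 20.5%. A gene that did not pass may therefore still have changed.

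Alternatives were DESeq2 1.42.0, no filter on low counts, a strict hashtag call (posterior of at least 0.95 and 5 hashtag UMIs), RoB cells only, no predicted doublets, the rule at 5 UMIs, thinning to 3000 UMIs, no mouse block, and each mouse left out. After seeing the data, vSVZ cells only, barcodes with under 3 microglia or neuroblast UMIs, and the Thbs4 class in place of the Nkx2-1 class were added.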

Additional observations from a re-analysis of the deposited data

Results flagged for a closer look

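The age change differed between KO and WT mice (KO change minus WT change, log2, edgeR's quasi-likelihood test of the interaction) in these genes of the class. It was lower in KO for Snhg9 (-3.47), Nr4a1 (-3.35), Retreg3 (-2.58), Tsc1 (-2.51), Coq3 (-2.28), Ogdhl (-2.14), Gdf10 (-1.90, a gene of the rule), Dusp1 (-1.77), Dio2 (-1.19), Srebf2 (-1.09), Insig1 (-0.91), Gria2 (-0.88), Gabbr1 (-0.75), Slc38a3 (-0.74), Atp1b2 (-0.60) and Id2 (-0.59). It was higher in KO for Cst3 (0.42), Fabp7 (0.80), Vim (1.23), Fbln5 (1.69), AI593442 (1.96), Prss56 (2.06), Meg3 (2.28), eYFP (2.47) and Ptgds (5.30). Without WT young mouse 2, 22 of these 25 did not pass, the 3 that did being Ogdhl, Dusp1 and Ptgds. Snhg9 and Ogdhl were lower in both WT young mice than in the other 6 mice, and Ptgds had 1691 CPM in WT young mouse 1.

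The change of the class differed from that of the Thbs4 class of the same mice (class minus Thbs4 class, log2, tested as an interaction in edgeR). For age in KO mice it was lower for Atf3 (-6.12), Mycl (-5.09), Klf2 (-4.88), Nr4a1 (-3.24), Egr1 (-2.73), Dusp1 (-2.44), Fosb (-2.30), Klf4 (-2.27), Zfp36 (-2.16), Ier2 (-1.94), Egfr (-1.78), Sox4 (-1.73), Junb (-1.69), Sox11 (-1.65), Fos (-1.51), Btg2 (-1.32), Jun (-1.23) and Jund (-1.10). It was higher for Luzp2 (1.12), Gria2 (1.43), Meg3 (1.65) and Dlk1 (3.37). For age in WT mice it was lower for Il33 (-7.43), Atf3 (-6.84), Ptgds (-4.03), Klf2 (-3.88), Ier2 (-3.82), Ifitm3 (-2.65), Hopx (-2.04), Vim (-1.71) and Sox4 (-1.65). Il33 was at 0 in the Thbs4 class of both WT young mice, so its fitted value is no bound.

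For genotype in old mice the class differed from the Thbs4 class in Thrsp (-1.52), Sparcl1 (0.65), Sfrp1 (1.0798), Prss56 (1.285), C4b (1.35), H2-D1 (1.37), Gstk1 (1.504), Ifitm3 (1.71), Hopx (1.74) and Meg3 (2.42). For genotype in young mice it differed in S100b (-3.45), Ptgds (-3.16), Fos (0.96), Rhob (1.09), Jun (1.12) and Pcp4 (3.87). None of the latter 6 passed without WT young mouse 1.

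In the comparison of tissues, 1 mouse lay far from the others in 10 of 44 sets of mice tested, where chance marks about 1 in 20 sets. As the log2 difference of RoB from vSVZ, the values were 5.78 for Apod, 0.45 for Ltbp1 and 0.68 for Slc25a18 in WT young mouse 1, -3.51 for Ccdc80 in WT young mouse 2, 0.16 for Gjb6 and 0.78 for Hmgcs1 in WT old mouse 1, -3.68 for Hist1h4d in KO old mouse 1, 0.066 for Kcnj16 in KO old mouse 2 and 0.73 for S100a6 in KO young mouse 1. In WT old mouse 1 the share of RoB hashtags was 40.5 points higher in the class than in the Thbs4 class, against 7.29 to 22.4 points in the other mice.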

How the results depend on the processing

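The counts of called genes depended on the settings, and in several comparisons so did their split into higher and lower. With DESeq2 they were 295 for age in WT (608 by edgeR), 21 for age in KO (56), 7 for genotype in old (11), 62 for tissue (115), and, for the differences from the Thbs4 class, 5 for age in WT (22), 5 for age in KO (29) and 0 for each genotype comparison (6 in young, 10 in old). DESeq2 gave no adjusted p for 37 of 76 named genes of age in WT and 25 of 38 of genotype in young. Without a filter on low counts they were 160 for age in KO, 86 for genotype in old, 174 for age by genotype (93) and 210 for tissue. With the strict hashtag call they were 393, 14, 47 and 28 for age in WT, age in KO, age by genotype and tissue, and 8 for age in KO and 2 for each genotype comparison of the class differences. RoB cells alone gave 29 for age in WT and 2 for genotype in old. KO young had 1 mouse in that setting, so counts that use KO young are left out. With vSVZ cells alone the counts were 507 for age in WT, 51 for age in KO and 94 for age by genotype. They were 234 for genotype in young and 11 for genotype in old. Leaving out predicted doublets gave 22 for genotype in old. Without barcodes holding microglia or neuroblast RNA, chosen after seeing the data, the counts were 359 for age in WT, 81 for genotype in young (61 higher, 20 lower; 156 with 81 higher) and 31 for genotype in old, and age by genotype split 27 to 44. The rule at 5 UMIs split genotype in young 84 to 49 and no filter 138 to 82, and DESeq2 split age by genotype 53 to 30 (46 to 47 by edgeR).

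Leaving out 1 mouse gave 142 to 345 for age in WT and 8 to 124 for age by genotype, both lowest without WT young mouse 2, 36 to 53 for age in KO, 39 to 79 for genotype in young, 6 to 33 for genotype in old, 75 to 126 for tissue, and 6 to 24, 12 to 30, 0 to 9 and 4 to 10 for the class differences in age in WT, age in KO, genotype in young and genotype in old. Shares of the class among astroglia were 42.5% at 5 UMIs and 41.5% with a hashtag call in WT young, 53.6% thinned, 54.2% and 53.5% in WT old, and 50.3% thinned, 50.1% and 48.2% in KO young. The difference in RoB share from the Thbs4 class was 17.6 points at 5 UMIs (exact permutation, adjusted p = 0.0625) and 12.7 points thinned (adjusted p = 0.125), with fewer mice.

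Signs turned in RoB cells alone for Prss56 (-5.52 in age by genotype, -0.87 for genotype in old) and, for genotype in young, Pipox (0.44), Ifit3 (0.34), Ifitm3 (0.21), Vim (0.48), Slc1a2 (-0.085) and Dio2 (-0.78). The RoB values for genotype in young and age by genotype rest on 1 KO young mouse with 28 cells. They also turned for C1qb (3.59) and C1qa (3.58) of age in WT without WT young mouse 2, with lowest values of -8.79 and -5.79 without WT old mouse 1, Zfp36 (0.0033) of age in WT without the barcodes holding other types' RNA, and Thrsp (0.13) of the class difference for genotype in old under the strict call. The cause was not tested. Named genes stayed called in 575 of 844 values under alternatives for age in WT, 245 of 376 for age in KO, 261 of 426 for genotype in young, 91 of 130 for genotype in old, 240 of 378 for age by genotype, 405 of 510 for tissue and, for the differences from the Thbs4 class, 46 of 63 for age in WT, 102 of 160 for age in KO, 19 of 42 for genotype in young and 26 of 70 for genotype in old.

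Tissues and classes were paired within mice, and the tissue comparison without the replicate block gave 46 calls in place of 115. The age and genotype groups hold different mice and were not paired. The planned Nkx2-1 class could not be fitted, with no mouse reaching 20 called cells. The class sums held 556536 to 1956572 UMIs per mouse, so 1 UMI is a large part of the level of genes at a few CPM.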
